A study of Mus musculus with 6 samples.

Results

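The genes described here are 10 AP-1, Egr1 and immediate early genes, called the early genes below. They are Fos, Fosb, Fosl1 and Fosl2 of the Fos family, Jun, Junb and Jund of the Jun family, and Atf3, Egr1 and Ier2. They were taken by gene symbol from a deposited table of 22332 symbols, and all 10 were found in it. The table comes from total RNA, depleted of ribosomal RNA, of CGR8 cells, an established mouse embryonic stem cell line grown on gelatin-coated plates with 10% fetal bovine serum and the cytokine LIF. The siRSL24D1 group (n = 3) had received a pool of siRNAs against Rsl24d1, and the siCtrl group (n = 3) a non-targeting pool. Both groups were therefore transfected, and RNA was taken 48 hours later. Untransfected cells were not analysed here.

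Immediate early genes are transcribed within minutes of a stimulus without the need for new protein. Growth factors, serum and stress reach their promoters through MAP kinases, the serum response factor SRF and its ternary complex partners, and CREB or ATF factors, and the mRNAs are short-lived because AU-rich elements in their tails recruit decay factors. Fos and Jun proteins pair through leucine zippers to form AP-1, which binds TGANTCA, mainly where the middle base is C or G. Jun proteins can also pair with each other or with ATF proteins, while Fos proteins need a partner from another family. In embryonic stem cells FGF signals through ERK drive many of the same genes, and that pathway favours exit from the naive state.

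All 10 genes passed the low-count filter, and all 10 had a positive log2 fold change. With edgeR's quasi-likelihood test, 7 of the 10 rose at an adjusted p under 0.05 (Fosl1, Atf3, Egr1, Jun, Fosl2, Fos and Junb), against 21.2% of the 15084 genes tested that rose. The number that fell was 0, against 20% of all genes tested. Since all 10 fold changes were positive, 0 could fall at an unadjusted p under 0.05 either. With DESeq2 and with limma-voom, run on the same counts, 0 fell. Fosl1 passed the low-count filter through its siRSL24D1 libraries alone, so it was tested because it was high there. Of the other 9 genes, which would have passed through either group, 6 rose, against 21.3% of the 14285 genes of that kind. Atf3 and Fosl1 rose by at least 2-fold, as did 2.33% of all genes tested. The median log2 fold change was 0.57 over the 10 genes and 0.02 over all genes tested. The siRSL24D1 libraries all lay above the siCtrl libraries for 8 of the 10 genes, a separation found for 26.8% of all genes tested.

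**Figure D1:**
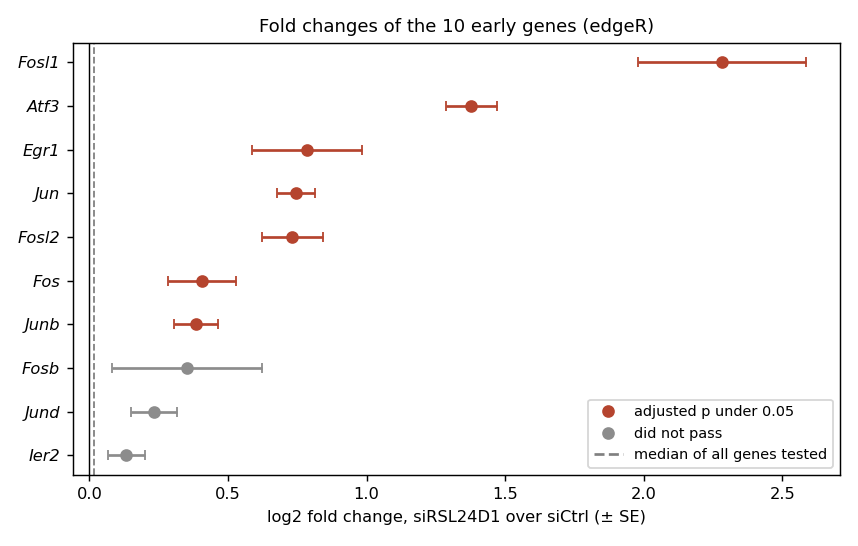
Log2 fold change of each gene, siRSL24D1 over siCtrl, with its standard error from edgeR; red points passed at an adjusted p under 0.05, grey points did not, and the dashed line is the median of all genes tested. All 10 points lie right of 0, from 0.13 for Ier2 to 2.28 for Fosl1.

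Library totals ran from 30943635 to 35214000 estimated counts. Levels are CPM, a count relative to its library total after scaling between libraries by the TMM method. Rsl24d1, which encodes a factor needed to assemble the large ribosomal subunit, had 53.8, 55.6 and 52.1 CPM in the siRSL24D1 libraries, against 99.4, 102.7 and 97.9 CPM in the siCtrl libraries. Markers of embryonic stem cells were high in both groups: the 8 markers summed to 2563 to 2695 CPM in siRSL24D1 and 2976 to 3365 CPM in siCtrl. Of these 8, 1 rose (12.5%) and 5 fell (62.5%), where 21.2% of all genes tested rose and 20% fell. The 8 fibroblast markers summed to 123.2 to 147.4 CPM in siRSL24D1 and 126.2 to 158.6 CPM in siCtrl. Of the 7 tested, 1 rose (14.3%) and 2 fell (28.6%). The 6 endoderm markers summed to 37.0 to 40.8 CPM in siRSL24D1 and 40.3 to 43.9 CPM in siCtrl, and 2 rose (33.3%) and 2 fell (33.3%). No marker was at 0 in every library, and the part of these markers in the early gene results was not tested. These are bulk samples, so a higher level in all cells and a larger share of cells with a high level cannot be told apart.

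The promoters of Fos, Jun and Atf3 are shown because these 3 genes rose and each carries within 250 bases of its RefSeq start letters that match a site of CREB, ATF or Jun proteins. Sequences are RefSeq's (GRCm38.p6), given 5′ to 3′ on the strand of the gene up to the base before the start. Capitals mark the core of the CRE, TGACGT, which CREB and ATF proteins bind, a variant of that site, TGACATCA, and the TATA box, TATAAA. They lie at chr12:85473640-85473889 on the plus strand for Fos, at chr4:95052223-95052472 on the minus strand for Jun and at chr1:191183334-191183583 on the minus strand for Atf3.
Fos: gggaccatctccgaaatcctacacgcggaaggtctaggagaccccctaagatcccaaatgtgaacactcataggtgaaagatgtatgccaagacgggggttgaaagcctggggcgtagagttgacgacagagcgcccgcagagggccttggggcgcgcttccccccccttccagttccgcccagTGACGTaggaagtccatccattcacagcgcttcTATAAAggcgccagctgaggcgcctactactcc
Jun: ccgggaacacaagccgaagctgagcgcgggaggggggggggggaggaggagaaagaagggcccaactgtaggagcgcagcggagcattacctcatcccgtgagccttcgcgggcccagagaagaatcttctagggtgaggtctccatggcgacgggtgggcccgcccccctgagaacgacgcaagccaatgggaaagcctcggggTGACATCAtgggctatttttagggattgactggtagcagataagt
Atf3: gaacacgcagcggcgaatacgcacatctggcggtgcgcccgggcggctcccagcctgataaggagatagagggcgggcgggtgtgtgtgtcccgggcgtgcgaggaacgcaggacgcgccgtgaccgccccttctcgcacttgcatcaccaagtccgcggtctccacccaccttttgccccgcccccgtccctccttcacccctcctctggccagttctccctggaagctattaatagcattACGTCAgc

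Promoters of 7 of the 10 genes were matched in the RefSeq table, those of Fos, Fosb, Fosl2, Jun, Junb, Jund and Atf3. Both strands of the 250 bases before each start were searched for the CArG box that SRF binds and the TATAAA of the TATA box. Also searched for were the full CRE, which reads TGACGTCA, and the site of EGR proteins, which reads GCGNGGGCG. The AP-1 site was searched as TGANTCA, with any base in the middle. The CRE core and the variant printed in capitals above were added to the search after the sequences had been seen, and the core is contained in the full CRE. The core TGACGT was found in Fos from -66 to -61 relative to the start and, on the opposite strand, in Atf3 from -8 to -3, and 6.47% of all 32851 promoters hold it. TGACATCA was found in Jun from -45 to -38, and 2.93% of all promoters hold it. TATAAA stands in Fos from -33 to -28 (12.4% of all promoters), and GCGNGGGCG in Fosb from -50 to -42 and in Fosl2 from -79 to -71 (4.7%). The CArG box, the full CRE and TGANTCA, held by 1.47%, 1.55% and 6.75% of all promoters, were not found in these windows of the 7 genes. Sites more than 250 bases before a start were not searched, so a gene may hold these motifs outside its window. The windows of Junb and Jund held no match to any of the motifs. These windows end at the RefSeq start, which is not always the outermost start of the gene in GENCODE: for Jund it lies 1210 bases before that start, so the stretch next to the GENCODE start was not searched, while for Fosl2 it lies 671 bases and for Atf3 34706 bases inside the gene. For Fos, Jun, Fosb and Junb it lies within 30 bases of the GENCODE start. A match is a string of letters and no evidence of binding.

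In the Fos family, Fosl1, Fosl2 and Fos rose and Fosb did not pass. Fosl1 (chromosome 19, 5447547 to 5455946, plus strand, GRCm38) encodes Fra-1, a Fos protein without the strong activation domain of Fos. It had 1.02, 1.62 and 1.77 CPM in siRSL24D1 libraries 1 to 3, against 0.302, 0.369 and 0.234 CPM in siCtrl libraries 1 to 3. Those levels rest on 32, 57 and 59 counts in siRSL24D1 and 10, 12 and 8 counts in siCtrl, so Fosl1 stayed a rare transcript, and only 1 siCtrl library reached the filter's minimum, which is 10 counts at the median library total. Every siRSL24D1 library was well above every siCtrl library, with siRSL24D1 1 the lowest of its group. Fosl1 rose by 2.28 on the log2 scale, with 0.30 as the standard error (edgeR adjusted p = 0.000709), a 4.86-fold rise. With no low-count filter the rise was 2.28 as well (adjusted p = 0.000367).

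Fosl1 shares 1163 of its 2033 exon bases with Ccdc85b on the opposite strand, and whether strand was used in the counting is not given in the sources used here. Ccdc85b itself was at 0.998 ± 0.128 CPM in siRSL24D1 and 0.995 ± 0.332 CPM in siCtrl (SD, n = 3 each), with a log2 fold change of 0.01 (edgeR adjusted p = 0.98).

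Fosl2 (chromosome 5, 32135801 to 32157842, plus strand) encodes Fra-2, the other Fra protein. Its level was 40.6, 38.6 and 45.5 CPM in siRSL24D1 libraries, against 23.1, 22.3 and 29.6 CPM in siCtrl libraries. The groups did not overlap, and siCtrl 3 stood above the other siCtrl libraries. The rise was 0.73 ± 0.11 (log2 fold change ± standard error; edgeR adjusted p = 0.00136).

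Fos itself (chromosome 12, 85473890 to 85477273, plus strand), the founding member and the one that serum induces most sharply, was at 6.75, 8.12 and 7.22 CPM in siRSL24D1 libraries and 6.26, 5.65 and 4.78 CPM in siCtrl libraries. The groups did not overlap, but the lowest siRSL24D1 library and the highest siCtrl library were close. Fos rose by 0.41 ± 0.12 (log2 fold change ± standard error; edgeR adjusted p = 0.0284). The call was lost without siRSL24D1 2 (adjusted p = 0.0843), siRSL24D1 3 (0.065), siCtrl 2 (0.0817) or siCtrl 3 (0.0671), at log2 fold changes of 0.29 to 0.50 over the 6 runs that each left out a library.

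Fosb (chromosome 7, 19302696 to 19310051, minus strand), a close relative of Fos, was at 0.924, 0.798 and 1.05 CPM in siRSL24D1 libraries and 0.696, 0.983 and 0.498 CPM in siCtrl libraries. The groups overlapped at 28 to 35 and 17 to 32 counts a library, and the log2 fold change was 0.35 ± 0.27 (standard error; edgeR adjusted p = 0.331). Over the runs that each left out a library the log2 fold change was 0.13 to 0.62, and it did not pass in any of them (adjusted p = 0.13 to 0.719).

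**Figure D2:**
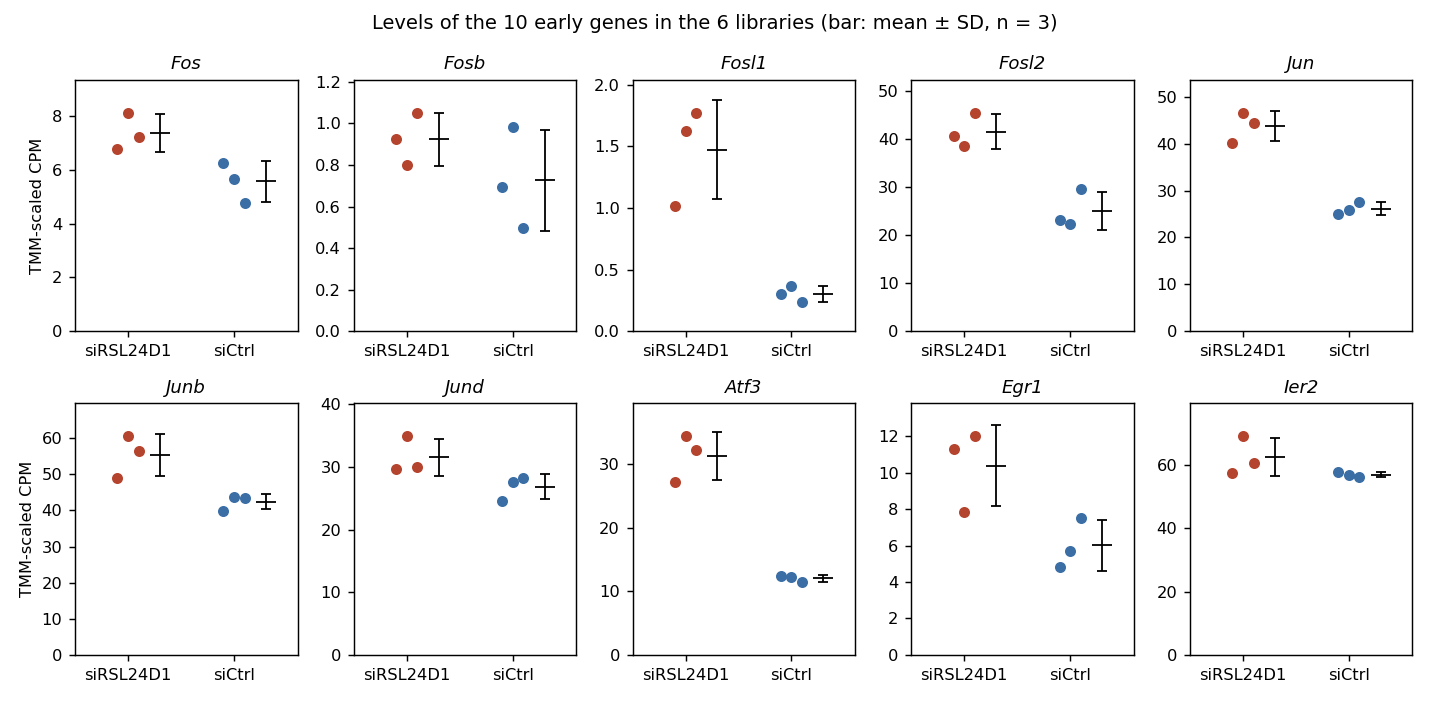
TMM-scaled CPM of each of the 10 genes (vertical axes start at 0 and differ between panels), with 1 point per library, siRSL24D1 in red and siCtrl in blue, and the mean ± SD of 3 libraries beside the points. The groups overlap only for Fosb and Ier2; Atf3 and Fosl1 show the widest separation, and Egr1 has its closest libraries at 7.87 CPM (siRSL24D1 2) and 7.53 CPM (siCtrl 3).

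In the Jun family, Jun and Junb rose and Jund did not pass. Jun (chromosome 4, 95049034 to 95052222, minus strand) encodes c-Jun, the partner that gives AP-1 most of its activity and a substrate of JNK kinases. It had 40.2, 46.7 and 44.4 CPM in siRSL24D1 libraries, against 24.9, 25.8 and 27.7 CPM in siCtrl libraries. The groups lay far apart relative to their spread, and the rise was 0.74 ± 0.07 (log2 fold change ± standard error; edgeR adjusted p = 0.000138). Junb (chromosome 8, 84974484 to 84978718, minus strand), a weaker activator that can oppose c-Jun, had 49.0, 60.6 and 56.3 CPM in siRSL24D1 libraries and 40.0, 43.6 and 43.5 CPM in siCtrl libraries. It rose by 0.38 ± 0.08 (log2 fold change ± standard error; edgeR adjusted p = 0.00554).

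Jund (chromosome 8, 70698949 to 70700616, plus strand), the Jun gene with the most constant expression in most cells, was at 29.7, 34.9 and 30.0 CPM in siRSL24D1 libraries and 24.6, 27.7 and 28.3 CPM in siCtrl libraries. Its groups did not overlap, yet its log2 fold change of 0.23 ± 0.08 (standard error) missed the threshold narrowly (edgeR adjusted p = 0.0506). It passed with library totals as the scaling (adjusted p = 0.0327), after the correction for exon length (0.0154) or GC content (0.0298), with the stricter low-count filter (0.049) and without siCtrl 3 (0.0366).

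Exons of 3 Jun genes overlap genes on the opposite strand. Jun shares 232 bases with the antisense gene Junos, Jund 877 bases with Gm11175 and Junb 173 bases with Prdx2. Prdx2, a peroxiredoxin, was at 375 ± 10.7 CPM in siRSL24D1 and 378 ± 14.1 CPM in siCtrl (SD, n = 3 each; log2 fold change -0.01, edgeR adjusted p = 0.887). Junos and Gm11175 were not analysed here.

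Atf3 (chromosome 1, 191170296 to 191218039, minus strand) encodes a stress-induced bZIP factor that pairs with Jun proteins and is induced through ATF4, p53 and MAP kinases in other settings. It had 27.1, 34.3 and 32.2 CPM in siRSL24D1 libraries, against 12.4, 12.2 and 11.5 CPM in siCtrl libraries. Every siRSL24D1 library was at least 2 times the level of any siCtrl library, and the siCtrl libraries were close together. Atf3 rose by 1.38 ± 0.09 (log2 fold change ± standard error; edgeR adjusted p = 4.17e-05), a 2.60-fold rise that ranked 184 from the top of 15084 genes.

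Egr1 (chromosome 18, 34859823 to 34864984, plus strand) encodes a zinc finger factor that is a standard readout of ERK activity. It was at 11.3, 7.87 and 12.0 CPM in siRSL24D1 libraries and 4.81, 5.68 and 7.53 CPM in siCtrl libraries. The groups did not overlap, though siRSL24D1 2 was nearly level with siCtrl 3. Egr1 rose by 0.79 ± 0.20 (log2 fold change ± standard error; edgeR adjusted p = 0.0141). The call was lost without siRSL24D1 1 (adjusted p = 0.0549), siRSL24D1 3 (0.0539) or siCtrl 2 (0.0525), at log2 fold changes of 0.65 to 0.97 over the runs without 1 library.

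Ier2 (chromosome 8, 84661331 to 84662852, minus strand), a short early gene without introns whose product acts in the nucleus, was at 57.5, 69.1 and 60.5 CPM in siRSL24D1 libraries and 57.7, 56.8 and 56.1 CPM in siCtrl libraries. The groups overlapped because siRSL24D1 1 lay at the siCtrl level. The log2 fold change of 0.13 ± 0.07 (standard error) did not pass (edgeR adjusted p = 0.146), and it was 0.19 and passed after the correction for exon length (adjusted p = 0.0157).

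Genes were compared with each other by TMM-scaled CPM per kilobase of merged exons, and the order of levels was nearly the same in both groups. Merged exons can be longer than the transcripts a gene makes, so comparisons between genes on this scale are approximate. Ier2 was first with 41.0 ± 3.93 in siRSL24D1 and 37.4 ± 0.523 in siCtrl, followed by Junb with 24.0 ± 2.54 in siRSL24D1 and 18.4 ± 0.897 in siCtrl and by Jund with 18.9 ± 1.76 in siRSL24D1 and 16.1 ± 1.20 in siCtrl (CPM per kilobase, SD, n = 3 each). In siRSL24D1 Atf3 came next with 14.5 ± 1.72 and Jun after it with 13.7 ± 1.02, and their ranges overlapped. In siCtrl Jun came before Atf3, with 8.19 ± 0.440 for Jun and 5.59 ± 0.236 for Atf3, and their ranges did not overlap. Below them in both groups came Fosl2, Fos, Egr1, Fosl1 and Fosb, down to 0.148 ± 0.0204 for Fosb in siRSL24D1 and 0.116 ± 0.0391 in siCtrl. The only other neighbours whose ranges overlapped were Fosl2 and Fos, and Fosl1 and Fosb, both in siCtrl.

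**Figure D3:**
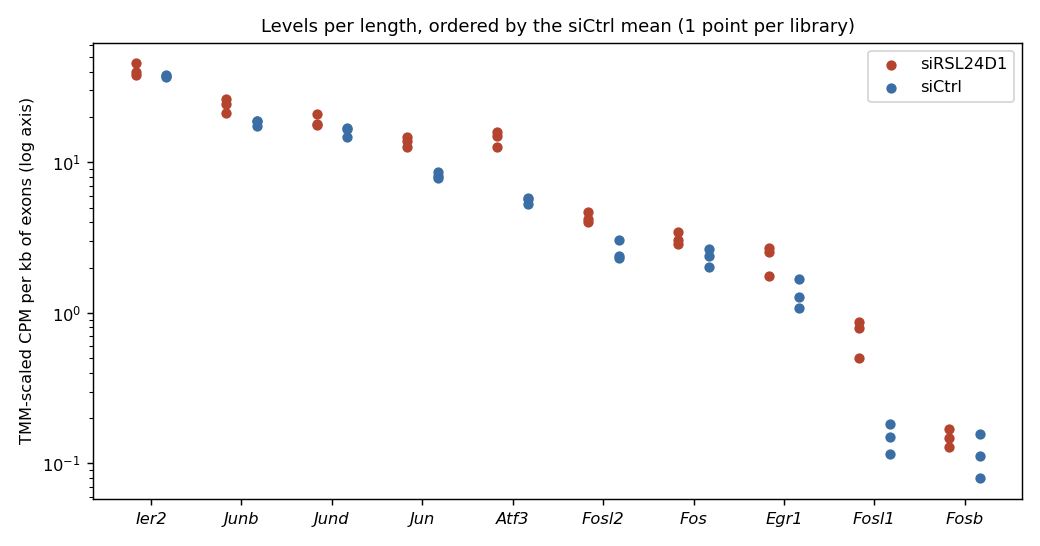
TMM-scaled CPM per kilobase of exons on a log axis for the 10 genes, ordered by the siCtrl mean, with 1 point per library and siRSL24D1 (red) left of siCtrl (blue). Jun family genes lie above the Fos family genes in both groups, and Fosl1 and Fosb lie lowest.

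Summed per length, Jun family mRNA outweighed Fos family mRNA in every library. The Fos family reached 8.30 ± 0.552 CPM per kilobase in siRSL24D1 and 5.21 ± 0.143 in siCtrl, a ratio of 1.59, and the Jun family 56.7 ± 5.09 in siRSL24D1 and 42.7 ± 2.45 in siCtrl, a ratio of 1.33 (SD, n = 3 each). The ratio of Jun to Fos family levels was 6.70, 7.40 and 6.40 in siRSL24D1 libraries and 7.52, 8.64 and 8.43 in siCtrl libraries. For each of these 3 quantities the groups did not overlap (exact permutation p = 0.1, two-sided, the smallest that 3 against 3 libraries can give).

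Within the families, the shares of 3 genes did not overlap between the groups. Fosl1 was 8.65 ± 1.87% of the Fos family level in siRSL24D1 and 2.86 ± 0.706% in siCtrl. Its siCtrl share rests on 8 to 12 counts a library, and Fosl1 passed the low-count filter through siRSL24D1 alone. Jun was 24.2 ± 0.535% of the Jun family level in siRSL24D1 and 19.2 ± 0.573% in siCtrl. Jund was 33.4 ± 1.32% of the Jun family in siRSL24D1 and 37.7 ± 0.673% in siCtrl (SD, n = 3 each; exact permutation p = 0.1 for each of these 3 shares). Fosl2 and Fos made up most of the Fos family in both groups: Fosl2 was 51.8 ± 3.64% in siRSL24D1 and 49.5 ± 7.25% in siCtrl (exact permutation p = 0.8), and Fos 37.8 ± 3.27% in siRSL24D1 and 45.4 ± 6.15% in siCtrl (exact permutation p = 0.2). Junb was 42.4 ± 1.13% of the Jun family in siRSL24D1 and 43.1 ± 0.606% in siCtrl (exact permutation p = 0.4). Fosb was 1.79 ± 0.223% of the Fos family in siRSL24D1 and 2.24 ± 0.814% in siCtrl (exact permutation p = 0.5). Shares were compared for 7 genes, and adjustment over them cannot bring any p below 0.1. Shares within a family add up to the whole, so the changes of the Jun and Jund shares are not separate results. The level of Jund itself was not lower in siRSL24D1 (log2 fold change 0.23).

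The 10 genes spread more between libraries of a group than most genes of like level. Set beside the 500 genes on either side in average level, the within-group SD of the log2 level was at percentiles from 66.5 (Fosb) to 96.6 (Egr1). Egr1 had an SD of 0.33 where the median of its neighbours was 0.11, and Fosl2 an SD of 0.18 where the median was 0.07. In siRSL24D1 2, 7 genes were above their group mean; the 3 below it, Egr1, Fosb and Fosl2, are those with the most exon bases (4484, 6243 and 9680). In siRSL24D1 1 only Egr1 and, by 0.01, Fosb were above the mean.

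Levels in the libraries moved with exon length across all genes. Over 15073 genes, Spearman's rho between a gene's deviation from its group mean and its exon bases was 0.20, -0.37 and 0.26 in siRSL24D1 libraries 1 to 3 and -0.29, -0.25 and 0.37 in siCtrl libraries 1 to 3, given as a description across genes that are not independent. The log2 fold change had a rho of 0.11 with exon length. After a correction for exon length the log2 fold changes were 2.33 for Fosl1, 1.42 for Atf3, 0.79 for Egr1, 0.76 for Jun, 0.69 for Fosl2, 0.45 for Fos, 0.42 for Junb, 0.34 for Fosb, 0.29 for Jund and 0.19 for Ier2, and of these only Fosb did not pass.

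**Figure D4:**
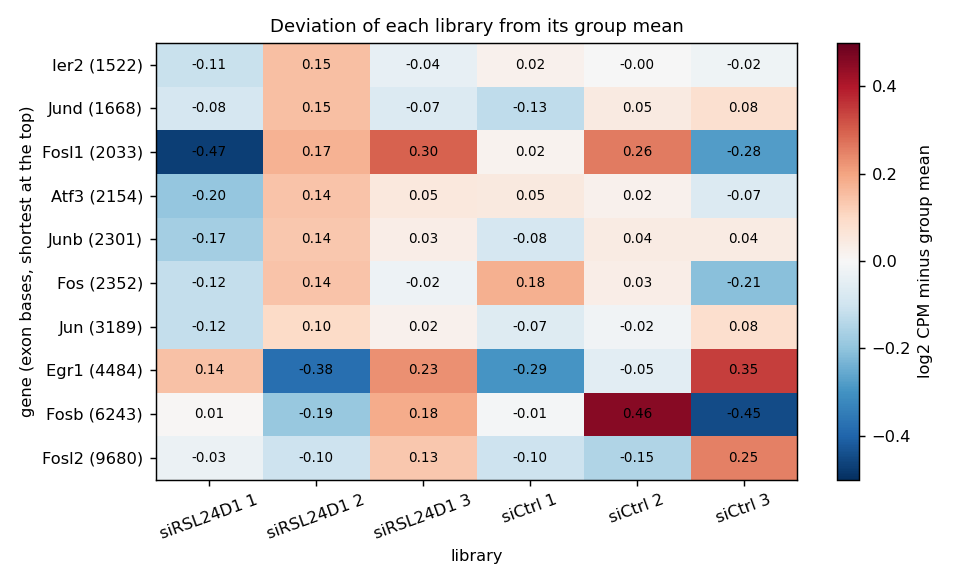
Log2 CPM of each gene minus the mean of its group, for the 6 libraries (columns) and 10 genes (rows, with exon bases in brackets, shortest at the top); red is above and blue below the group mean. In siRSL24D1 2 the 7 genes with fewer exon bases are above the mean and the 3 with the most are below it.

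For 3 genes the profiles most like theirs over the 6 libraries were found by Euclidean distance of centred log2 levels, among 9890 genes whose log2 CPM averaged 3 or more. Nearest to Jun were Slc39a14 (distance 0.10), a metal transporter, Errfi1 (0.11), a feedback inhibitor of the EGF receptor, and Ppp1r10 (0.11), a subunit that targets protein phosphatase to the nucleus. Nearest to Egr1 were Nbea (0.14), Lef1 (0.16), a transcription factor of the Wnt pathway, and Mast4 (0.19). Nearest to Fos were Ckb (0.11), a creatine kinase, Ccdc137 (0.13) and Mrps11 (0.13), a mitochondrial ribosomal protein.

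Other early genes moved in both directions. Of 25 in the list 22 were tested, 13 rose (59.1%) and 4 fell (18.2%), where 21.2% of all genes tested rose and 20% fell. The median log2 fold change was 0.33. Egr3, a relative of Egr1, had 1.18, 0.827 and 1.05 CPM in siRSL24D1 libraries and 0.242, 0.215 and 0.264 CPM in siCtrl libraries, a rise of 2.06 ± 0.26 (log2 fold change ± standard error; edgeR adjusted p = 0.000551). These levels rest on 37, 29 and 35 counts in siRSL24D1 and 8, 7 and 9 counts in siCtrl, so Egr3 too passed the low-count filter through siRSL24D1 alone. With no filter it rose by 2.05 (adjusted p = 0.00046), and with the filter of 1 CPM in 3 libraries it was not tested. Ptgs2, the inducible prostaglandin synthase, rose by 1.53 (adjusted p = 0.000104). Egr2, the other EGR factor tested, rose by 1.04 (adjusted p = 0.0176), a call lost without siRSL24D1 1 (0.064) or siCtrl 2 (0.0635). Among genes picked after their values were seen, Myc rose by 0.53, and so did Nr4a1, an orphan nuclear receptor, and Btg2, an antiproliferative gene. The genes that fell, picked in the same way, were Maff, a small Maf protein, at -0.67, Klf10 at -0.53, Ier3 at -0.50 and Gadd45b at -0.32.

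Of the 26 kinases and factors tested that act upstream, 11 rose (42.3%) and 6 fell (23.1%), with a median of 0.03. The share that fell was near the 20% of all genes tested, and the share that rose was above their 21.2%. The number that rose was 5 without siRSL24D1 1, 6 without siRSL24D1 3, 5 without siCtrl 2 and 7 with upper-quartile scaling. Fewer of all genes tested rose in each of these runs as well (2210 of 15275 without siCtrl 2). The upstream share that rose stayed above that of all genes in each run, but by less than in the reported fit. Without siRSL24D1 1 it was only slightly above, so the size of the excess was not stable. Mkl2, an SRF coactivator, rose by 0.50 (edgeR adjusted p = 0.0131), a call lost without siRSL24D1 1 (0.0549), siRSL24D1 3 (0.0508) or siCtrl 2 (0.0542). Map2k1, the ERK kinase MEK1, fell by 0.49 (adjusted p = 0.000104), and Rps6ka5, a chromatin kinase downstream of ERK and p38, fell by 0.49 (adjusted p = 0.000926). Picked after their values were seen, Srf was at 43.2 ± 1.79 CPM in siRSL24D1 and 32.4 ± 1.17 CPM in siCtrl (SD, n = 3 each), a rise of 0.42 (adjusted p = 0.000532), and Elk3, a ternary complex factor, rose by 0.48. Mapk3, which encodes ERK1, was at -0.47 (adjusted p = 0.000225). These are mRNA levels and say nothing of kinase activity.

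Feedback genes of the same pathway rose or did not pass. Of 12 phosphatases and EGR corepressors tested, 7 rose (58.3%, against 21.2% of all genes tested) and 0 fell (edgeR; 1 fell at an unadjusted p under 0.05, and 0 with DESeq2 or limma-voom), with a median of 0.27. Dusp2, a nuclear MAP kinase phosphatase, had 2.61, 2.62 and 2.50 CPM in siRSL24D1 libraries and 0.907, 1.11 and 1.14 CPM in siCtrl libraries, a log2 fold change of 1.29 (adjusted p = 0.000379). Dusp8, which acts on JNK and p38, rose by 1.07 (adjusted p = 0.000376), and Dusp6, a phosphatase of ERK that ERK induces, rose by 0.62 (adjusted p = 5.58e-05). Dusp6 was at 120.6, 132.1 and 129.7 CPM in siRSL24D1 libraries and 82.1, 82.9 and 84.1 CPM in siCtrl libraries.

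**Figure D5:**
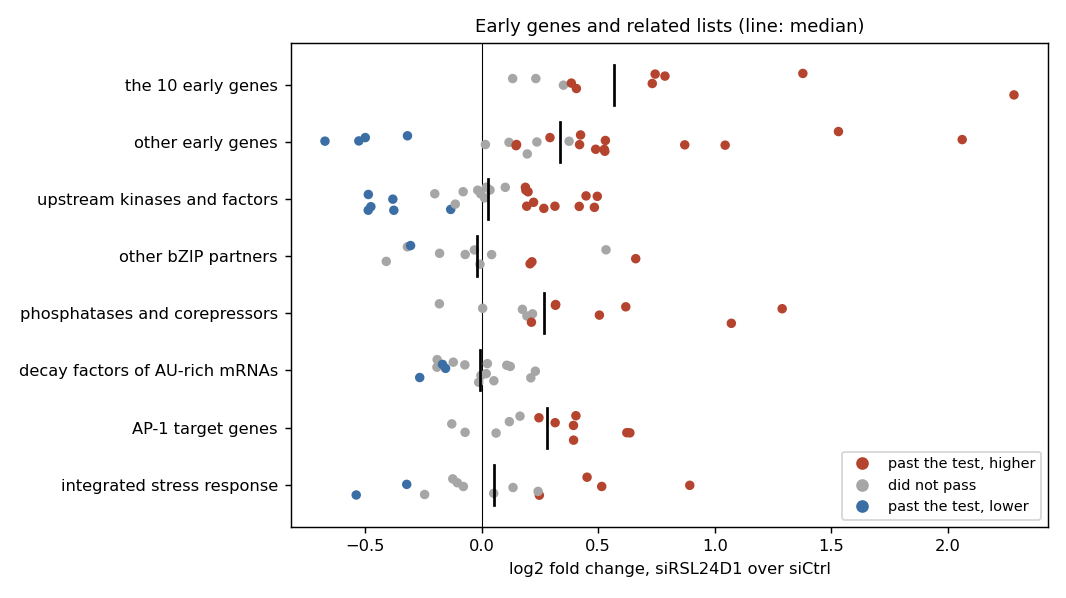
Log2 fold change, siRSL24D1 over siCtrl, of the 10 early genes and of the tested members of 7 related lists (1 point per gene, placed at random heights within its row; black line, median); red passed the test and is higher, blue passed and is lower, grey did not pass. The medians run from 0.57 for the 10 early genes to -0.02 for the other bZIP partners.

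Of 18 AP-1 target genes 12 were tested, 7 rose (58.3%, against 21.2% of all genes tested) and 0 fell (edgeR; 0 at an unadjusted p under 0.05, with DESeq2 or with limma-voom; 1 without siCtrl 3), with a median of 0.28. Vim, which encodes the intermediate filament vimentin, rose by 0.62 (edgeR adjusted p = 0.000159) and Ccnd1, cyclin D1, by 0.40 (0.00037). Other targets often read as AP-1 reporters, among them Mmp3, Mmp10, Mmp13 and Il6, were under the low-count filter. These genes answer to other factors as well.

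Of 12 partners tested from the wider bZIP family, 3 rose (25%, near the 21.2% of all genes tested) and 1 fell (8.33%, against 20%), with a median of -0.02. Maf rose by 0.66 (edgeR adjusted p = 0.00291) and Atf2, a partner of Jun at CRE-like sites, by 0.22 (0.00725), while Nfe2l2, the oxidative stress factor NRF2, fell by 0.30 (0.000755). Without siCtrl 3, 2 fell. In the integrated stress response, whose factor ATF4 can induce Atf3, 4 of 13 tested genes rose (30.8%) and 2 fell (15.4%), with a median of 0.05, shares not far from the 21.2% and 20% of all genes tested; 4 fell with DESeq2 size factors, upper-quartile scaling or the length correction. Sesn2, a sestrin that p53 also induces, rose by 0.89 (adjusted p = 2.09e-05), Ppp1r15a, the phosphatase subunit GADD34, rose by 0.52 (0.000581), and Asns, asparagine synthetase, fell by 0.54 (0.000303). Atf4, picked after its value was seen, rose by 0.25 (adjusted p = 0.0174), a call lost without siRSL24D1 3 (0.0543).

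A further list holds proteins that bind AU-rich mRNAs or take part in mRNA decay, called decay factors here. Not all of them shorten the life of a transcript, since Elavl1, Tia1 and Tial1 are among them. With edgeR 0 of 16 tested rose, against 21.2% of all genes tested. With an unadjusted p under 0.05 1 rose, and 0 rose with DESeq2 or limma-voom. In the edgeR fit 3 fell (18.8%, near the 20% of all genes tested), with a median of -0.01 over the list. Parn, a deadenylase, fell by 0.26 (edgeR adjusted p = 0.00286). Cnot8, a deadenylase of the CCR4-NOT complex, fell by 0.17 (adjusted p = 0.0179), a call lost without siRSL24D1 3 (0.0737), siCtrl 1 (0.0807) or siCtrl 2 (0.0795). Zfp36, the AU-rich element binding protein tristetraprolin, fell by 0.15 (adjusted p = 0.0445) and lost its call in each of the 6 runs without 1 library (0.0512 to 0.141). The number that fell was 1 without siRSL24D1 3, siCtrl 1 or siCtrl 2, and 5 with upper-quartile scaling or the length correction, and 3 rose without siCtrl 3.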

How the data were processed

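The authors deposited estimated counts, 1 value for each gene symbol in each library, with no scaling. STAR 2.7.0f, Salmon 0.14.1 and the build GRCm38 are named in the submitters' processing notes; what each tool did, which annotation was used and whether strand was counted is not given in the sources used. Values were rounded, low genes removed by filterByExpr at a minimum count of 10 and a total of 15 (15084 genes stayed), and libraries scaled by TMM and compared with edgeR 4.0.16's quasi-likelihood F test (R 4.3.3, two-sided). Benjamini-Hochberg adjustment ran over all genes tested, and genes were called under 0.05. CPM are TMM-scaled, and centred log2 levels used a prior count of 2. Positions and exon lengths (all exons of a gene merged) are from GENCODE M21, promoters from RefSeq. Alternatives were other scalings, filters and thresholds, unrounded values, DESeq2 1.42.0, limma-voom (limma 3.58.1), the replicate number as a block, length and GC corrections, and leaving out each library. The series' design text calls the samples independent triplicates. The edgeR p-values set the difference between the groups against the spread between these libraries. That spread and the number of libraries limit the precision.

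The members, lists, tests and naming rule were chosen with earlier results of these data known. The rule names the 10 genes, Rsl24d1, the 3 called members of each related list with the largest change, and the 3 nearest profiles to Fos, Jun and Egr1. Genes outside it are marked as picked after their values were seen. Of the AP-1 targets it names, 1 is counted but not reported here. The fit was checked on simulated counts with known changes. No protein sequence was used here.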

Additional observations from a re-analysis of the deposited data

How the results depend on the processing

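Over 20 alternatives, 0 of 918 fold changes of single genes turned their direction, and 335 of 360 counts stayed within 1.5 times the reported one. Counts that stayed at 0 are included in the 335, though they form no ratio. Among them, the count of early genes that fell could not move unless a fold change turned. The stricter threshold reused the reported fit, so its fold changes could not turn. Most of these genes were also named because they had passed the test in these data. The number of the 10 early genes that rose was 5 to 7 without 1 library, and the same 7 genes kept their call under each other alternative except an adjusted p under 0.01, which kept 5. With upper-quartile scaling 7 upstream genes rose, 1 phosphatase fell, 5 decay factors fell and 4 stress response genes fell. The length correction also gave 5 decay factors and 4 stress response genes that fell, and DESeq2 size factors 4 stress response genes. Under an adjusted p of 0.01, 1886 genes rose and 1867 fell in all, with 5 upstream genes higher and 1 decay factor lower. Without 1 library, 5 to 10 upstream genes rose, 1 to 2 bZIP partners fell, 0 to 3 decay factors rose and 1 to 2 fell, and 0 to 1 AP-1 targets fell; over all genes 2210 to 3356 rose and 2147 to 3285 fell.

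Whether replicate numbers pair the samples cannot be told from these libraries. The correlation of deviations was -0.22, 0.14 and 0.17 for equal numbers 1 to 3, and between -0.40 and 0.34 for unequal numbers. With the replicate number as a block, 2 decay factors rose, also with the length or GC correction, and with block and length correction 5 decay factors and 4 stress response genes fell; Jund passed (adjusted p = 0.0224). The cause of these moves was not tested. Fosb and Fosl1 rest on 59 counts a library or fewer, so counting error weighs more on them than on the other 8.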
